A study of Mus musculus with 6 samples.

Results

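The genes described here are 10 core components of the Notch pathway: the receptors Notch1, Notch2, Notch3 and Notch4, the ligands Dll4, Jag1 and Jag2, and the target genes Hey1, Hey2 and Hes1. They were taken by name, through the Entrez ID of each array feature, and all 10 were found among 23279 named genes. In fetal livers with the Gata4 knockout the target genes Hey1 and Hes1 were 2.12-fold and 1.50-fold higher than in control livers. No receptor or ligand passed the test, though the receptor Notch3 and the target Hey2 were also 1.50-fold higher. Embryo sex was not balanced between the groups, and neither Hey1 nor Hes1 passed in a fit with a term for sex. The RNA came from whole mouse fetal livers at embryonic day 11.5, hybridised to Affymetrix arrays. In 3 arrays the livers were labelled Stab2Cre;Gata4 knockout, from embryos of genotype Stab2-Cre;Gata4fl/fl, and in 3 arrays they were labelled Stab2Cre;Gata4 heterozygous and served as controls. Both titles name the Cre, so as labelled the controls carry the transgene and one altered Gata4 allele. The embryos came from Stab2-Cretg/wt;Gata4fl/wt parents mated to Gata4fl/fl mice, with the floxed allele Gata4tm1.1Sad on a B6;129 background. Stab2 is a gene of the sinusoidal endothelium, so the deletion was aimed at vessel lining cells, whereas the RNA was that of the whole liver. The number of embryos behind each array was not given in the sources used here. By its title, the series concerns what GATA4 in endothelium does for organ-specific vessels, liver growth and embryonic blood formation.

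Notch signalling passes between touching cells. A ligand of the Delta-like or Jagged family on one cell binds a Notch receptor on its neighbour. The receptor is then cut, and its intracellular part enters the nucleus and joins the DNA-binding protein RBPJ and a Mastermind coactivator to switch on target genes, above all repressors of the HES and HEY families. In blood vessels, DLL4 with NOTCH1 and NOTCH4 restrains sprouting and favours arterial fate. In vessel walls, JAG1 on endothelium acts on NOTCH2 and NOTCH3 of smooth muscle cells and pericytes. In the liver, JAG1 and NOTCH2 guide bile duct formation, and these genes are mutated in human Alagille syndrome.

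RBPJ reads the letters GTGGGAA, and genes that answer to Notch often hold them near their start. The 300 bases around the annotated start (250 before and 50 after) were held for 8 of the 10 genes in RefSeq's GRCm38.p6 table, and those of Hey1 and Hes1 were not analysed here. The motif GTGGGAA was searched on both strands. It was in 6.38% of 32851 promoter windows of the same length, and in 1 of the 8, that of Hey2. The Hey2 window lies on the minus strand at chr10:30842734-30843033 and has 2 matches, at bases 44 to 50 and 247 to 253 counted from its 5′ end. Hes7, a further HES gene, was taken up here because it was the only call in the further Notch lists, a count near the share over all genes. It has 1 match, at bases 71 to 77 of its window on the plus strand at chr11:69120203-69120502. Both are printed 5′ to 3′, with the matches to GTGGGAA or its reverse complement in capitals.
Hey2: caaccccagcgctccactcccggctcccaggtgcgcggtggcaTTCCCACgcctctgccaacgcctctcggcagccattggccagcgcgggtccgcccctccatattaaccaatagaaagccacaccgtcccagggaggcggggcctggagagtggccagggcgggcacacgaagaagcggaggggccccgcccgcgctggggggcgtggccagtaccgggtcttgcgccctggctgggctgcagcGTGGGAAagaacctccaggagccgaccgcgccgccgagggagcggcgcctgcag
Hes7: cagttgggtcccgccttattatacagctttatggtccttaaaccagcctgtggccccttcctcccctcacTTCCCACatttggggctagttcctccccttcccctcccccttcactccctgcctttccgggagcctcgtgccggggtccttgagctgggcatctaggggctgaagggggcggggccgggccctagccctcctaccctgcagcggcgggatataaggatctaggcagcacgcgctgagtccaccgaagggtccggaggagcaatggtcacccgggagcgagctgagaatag
The E-box CACGTG, which HEY proteins themselves bind, was in 7.15% of all windows and in 0 of the 8. The GATA motif AGATAA, on either strand, was in 11.2% of all windows and in 0 of the 8. These matches describe the windows: binding was not measured, and a window without the letters says nothing of the factor.

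Expression values are log2 values after RMA, the authors' normalisation, so a difference of 1 is a 2-fold change. Values of different genes come from different probes and are not set against each other. Where unlogged values are summed over a list, the brightest genes weigh most in the sum. Genes were tested with limma, a linear model with moderated variance, over the 6 arrays, and called at a Benjamini-Hochberg adjusted p under 0.05 across all 23279 genes. Array means are given ± SD with n = 3 arrays a group.

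Embryo sex was not balanced between the groups. All 3 knockout arrays read as female, with Xist between 10.31 and 10.71. Control replicate 2 was the one female control, at 10.19, while control replicates 1 and 3 read 3.58 and 3.96 for Xist and 8.18 and 8.15 for the Y-linked gene Uty. The difference from control replicate 2 alone, which equals the estimate with a sex term, is therefore given for each of the 10 genes. Heart muscle genes also varied by array: Myl7, the atrial myosin light chain, read 6.22, 5.71 and 8.72 in knockout replicates 1, 2 and 3, and 7.17, 8.55 and 5.84 in control replicates 1, 2 and 3. It was thus highest in knockout replicate 3 and in control replicate 2, the only female control. In differences from that control, sex and heart muscle signal therefore cannot be told apart. Without knockout replicate 3 and control replicate 2, 0 of the 10 genes passed, and 17 of all genes did, though Hey1 and Hes1 still differed by 1.03 and 0.58. In that fit Notch1, Notch2, Notch3 and Notch4 differed by 0.21, 0.35, 0.75 and 0.21. The ligands Dll4, Jag1 and Jag2 differed by 0.42, 0.31 and 0.10. Gata4 read 10.42 ± 0.19 in knockout livers and 9.91 ± 0.05 in control livers (adjusted p = 0.0409), so it was not lower in the whole organ. That call was lost without any 1 of 5 arrays (all but knockout replicate 2), with adjusted p-values of 0.0645 to 0.144. Of the hepatic cells, Alb and Afp, the albumin and alpha-fetoprotein genes, were abundant in every array, with lowest values of 13.33 and 13.29, near the top of the scale of 13.9.

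Of the 10 genes, 2 rose and 0 fell, against 3.59% of all genes higher and 2.77% lower. The 2 were the target genes Hey1 and Hes1. All 10 log2 fold changes were above 0, as were 48.3% over all genes, and their median was 0.28 against −0.01 over all genes. Knockout and control arrays did not overlap, with knockout higher, for 5 of the 10 (Hey1, Hes1, Hey2, Notch3 and Dll4), against 13.0% of all genes, and for 0 with knockout lower, against 14.3%. The same 5 had an unadjusted p under 0.05, against 11.1% of all genes with knockout higher. Against control replicate 2 alone 9 of 10 differences were above 0, against 49.4% of all genes, with a median of 0.25. With a sex term 0 of the 10 passed, and 0.0129% of all genes did (3 genes, all higher).

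**Figure D1:**
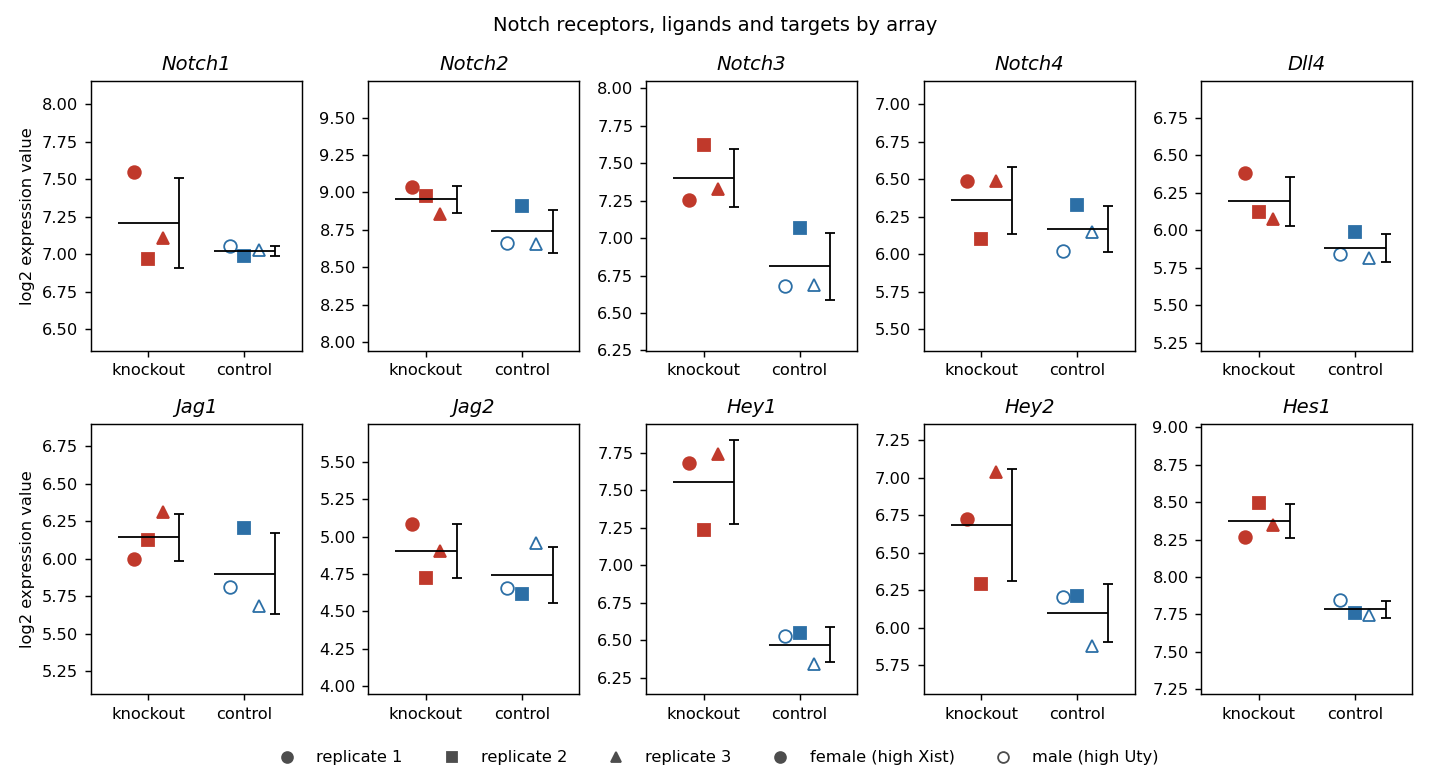
Log2 expression value of each of the 10 genes in each array (vertical axes, each spanning 1.8 log2 units), knockout left and control right; symbols mark replicates, filled female and open male, and lines and bars give the mean and SD of 3 arrays. Hey1 and Hes1 show the widest gaps between groups relative to their spread, while Notch1, Notch2, Notch4, Jag1 and Jag2 overlap.

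Hey1 had the largest difference of the 10. Its product is a basic helix-loop-helix repressor of endothelium and vessel wall cells that acts with Hey2 in arterial development. It read 7.69, 7.23 and 7.75 in knockout livers, against 6.53, 6.55 and 6.34 in control livers. The lowest knockout array, replicate 2, was still well above every control. The means were 7.56 ± 0.28 in knockout and 6.47 ± 0.12 in control livers, 2.12-fold higher in knockout (log2 fold change 1.08 with an SE of 0.15, limma adjusted p = 0.0126). Against the female control alone the difference was 1.01, or 2.01-fold, with an adjusted p = 0.172 in the limma fit with a sex term. The call held in 5 of the 6 fits that left out 1 array and was lost without control replicate 3 (adjusted p = 0.0606), with differences from 0.99 to 1.24.

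Hes1 encodes a repressor that many cell types make in response to Notch, including blood and bile duct progenitors. Its values were 8.27, 8.49 and 8.35 in knockout livers, against 7.85, 7.76 and 7.75 in control livers. Both groups were tight, and the gap between them exceeded the range within either. The means of 8.37 ± 0.11 in knockout and 7.78 ± 0.06 in control livers differed 1.50-fold (log2 fold change 0.59, SE 0.10, limma adjusted p = 0.0187). Against the female control the difference was as large, 0.61 or 1.53-fold (adjusted p = 0.189 with a sex term). Leaving out 1 array kept it between 0.52 and 0.64. The call was lost without knockout replicate 3 (adjusted p = 0.0637), control replicate 2 (0.0635) or control replicate 3 (0.0840).

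Hey2, the partner of Hey1 in arteries and a repressor active in the heart ventricle, differed as much as Hes1 but varied more. It read 6.73, 6.29 and 7.04 in knockout livers, against 6.21, 6.21 and 5.88 in control livers. Knockout replicate 2 lay just above the highest control, and knockout replicate 3 stood highest. The difference of 0.59 (SE 0.19) did not pass (limma adjusted p = 0.112), and against the female control it was 0.47. Without knockout replicate 2 it was 0.78 and passed (adjusted p = 0.0363), and without knockout replicate 3 it was 0.41 (adjusted p = 0.255). The heart muscle list had 10 of 10 genes measured and 0 past the threshold. Its summed unlogged level was 733 to 3451 in knockout arrays and 748 to 4297 in control arrays. Of the arrays rich in heart muscle genes, knockout replicate 3 had the highest Hey2 value, whereas control replicate 2 read the same as control replicate 1. With both arrays left out the Hey2 difference was 0.47. The part of heart muscle content in the Hey2 difference was not tested.

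**Figure D2:**
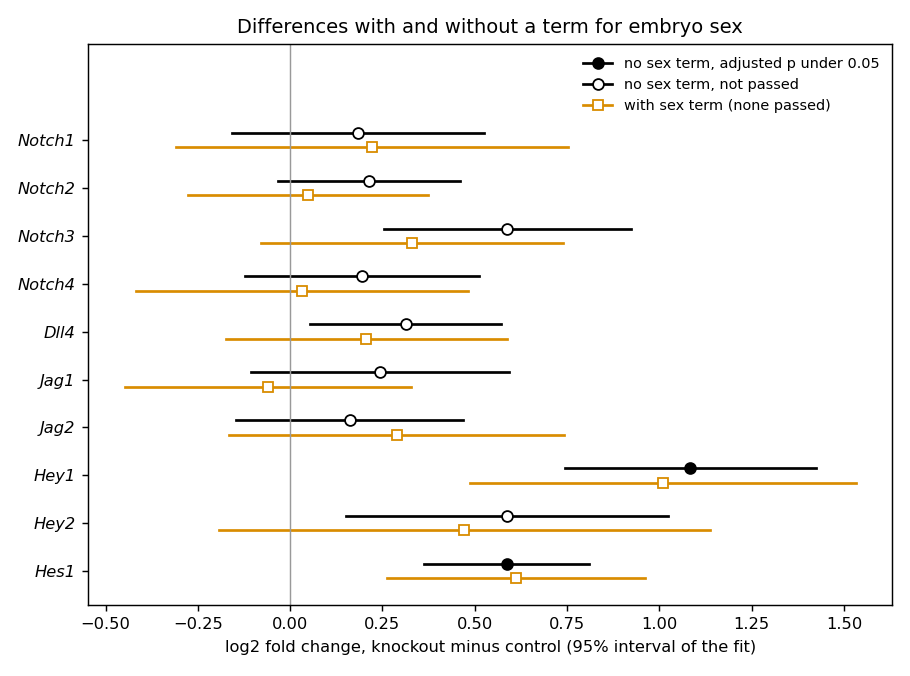
Log2 fold change (horizontal axis, knockout minus control) of each of the 10 genes with its 95% interval, without a sex term in black and with one in orange; filled circles passed the threshold. Hey1 (1.08 and 1.01) and Hes1 (0.59 and 0.61) keep their size with the sex term while their intervals widen, and Jag1 lies at −0.06 with it.

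Of the receptors none passed. Notch3, the receptor of smooth muscle cells and pericytes, came closest. It read 7.25, 7.62 and 7.33 in knockout livers, against 6.68, 7.07 and 6.69 in control livers. The groups did not overlap, but the female control lay near the lowest knockout array. The difference was 0.59 (SE 0.15, limma adjusted p = 0.0534), and 0.33 against the female control. It passed with a variance trend (limma adjusted p = 0.0449) and with the dimmest 25% or 50% of genes left out (0.0466 and 0.0321). With the replicate number as a block it also passed (0.0417), but it passed in none of the 6 fits without 1 array.

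Notch1, a main endothelial and blood stem cell receptor, read 7.54, 6.96 and 7.11 in knockout livers, against 7.05, 6.99 and 7.03 in control livers. Only knockout replicate 1 stood clearly above the controls. The difference was 0.18 with a 95% interval of −0.16 to 0.53 (limma adjusted p = 0.544), 0.22 against the female control, and 0.02 without knockout replicate 1. Notch4, a receptor largely of endothelium, read 6.49, 6.10 and 6.49 in knockout livers and 6.02, 6.33 and 6.15 in control livers. The groups overlapped, with knockout replicate 2 below 2 of the 3 controls. Its difference was 0.19 (interval −0.12 to 0.51), and 0.03 against the female control. Notch2, the receptor of bile duct formation, read 9.03, 8.98 and 8.86 in knockout livers and 8.66, 8.91 and 8.65 in control livers. The female control lay within the knockout range and the male controls below it. Its difference of 0.21 (interval −0.03 to 0.46) was 0.05 against the female control.

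None of the ligands passed either. Dll4, the Delta-like ligand of arterial and sprouting endothelium, read 6.38, 6.12 and 6.08 in knockout livers, against 5.84, 5.99 and 5.81 in control livers. The groups did not overlap, by a margin smaller than the spread within either. The difference was 0.31 (SE 0.11, limma adjusted p = 0.145), and 0.21 against the female control. Jag1, the Jagged ligand of bile duct and vessel wall, read 6.0, 6.12 and 6.31 in knockout livers and 5.81, 6.20 and 5.68 in control livers. Its highest values in either group were those of knockout replicate 3 and control replicate 2, the arrays with most heart muscle signal. The difference was 0.24 over all controls (interval −0.11 to 0.59) and turned to −0.06 against the female control. Jag2, the other Jagged ligand, read 5.08, 4.73 and 4.90 in knockout livers and 4.65, 4.62 and 4.96 in control livers. These values overlapped widely, and the difference of 0.16 had an interval of −0.15 to 0.47, with 0.29 against the female control.

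The remaining pathway genes were read from lists of ligands, processing enzymes, nuclear partners and targets. Of 49 genes measured in 6 such lists, 1 fell and 0 rose, again set against 2.77% and 3.59% of all genes. A single call among 49 genes is near the share over all genes. The one that fell was Hes7, a repressor of the somite segmentation clock. It read 5.77, 5.62 and 5.53 in knockout livers, against 6.26, 6.13 and 6.17 in control livers. Its groups did not overlap, and the difference was −0.55 (SE 0.10, limma adjusted p = 0.0253), and −0.49 against the female control. Hes7 did not pass with a sex term. When 1 array was left out the call was kept in 2 of 6 cases, those without knockout replicate 1 or 2, and lost in the others (largest adjusted p = 0.0960).

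Among the other 6 HES and HEY genes none passed, against 3.59% of all genes higher and 2.77% lower. Heyl, a target of NOTCH3 in vessel wall cells, read 5.95, 6.50 and 5.87 in knockout livers and 5.76, 5.40 and 5.75 in control livers, a difference of 0.47 (limma adjusted p = 0.176). Its knockout arrays were all above the controls, with replicate 2 highest. Hes6, a modulator of HES1, differed by −0.11 and Hes5, a neural Notch target, by 0.07. Hes5 read only 3.75 to 4.17, below the array median of 5.43, and could not be told from background. In the list of signal limiters 0 of 8 passed, against the same shares of all genes. Nrarp, a feedback inhibitor that Notch induces, differed by −0.01 (adjusted p = 0.983), and Numb, which removes receptor from the surface, by 0.24 (adjusted p = 0.203). Nrarp thus showed no difference of the size seen in Hey1: its 95% interval ran from −0.31 to 0.29.

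Apart from the 10 Notch genes, the lists of genes that make, send or read the signal had medians near 0. Their counts stand beside 3.59% of all genes higher and 2.77% lower. At those shares, lists this short would hold few calls or none. In the nuclear complex 0 of 11 passed (median 0.05), with the DNA-binding partner Rbpj at 0.20 and the coactivator Maml1 at 0.04. Its genes ranged from Kat2b at −0.52 to a further Mastermind gene, Maml2, at 0.51, with Maml3 at 0.39. The knockout arrays of Maml2 were all above the controls. Among receptor-cleaving enzymes 0 of 8 passed (median −0.07), and the sheddase Adam10 was at −0.09. Of 10 genes of ligand uptake and receptor glycosylation none passed (median −0.01). The fringe glycosyltransferase Lfng, which tunes receptors toward Delta-like ligands, was at −0.27 (limma adjusted p = 0.124). Pofut1, which adds the first fucose to the receptor, was at −0.26, and the ligand ubiquitin ligase Mib1 at 0.12. Of 5 further ligands none passed (median 0.04). Dll1 was at 0.26 and Dlk1, a Delta-like protein of hepatoblasts, at 0.35. Dlk1 read 11.74, 11.28 and 11.72 in knockout livers and 11.24, 11.19 and 11.25 in control livers, so its groups did not overlap, but it did not pass (limma adjusted p = 0.165) except without knockout replicate 2 (0.0345).

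**Figure D3:**
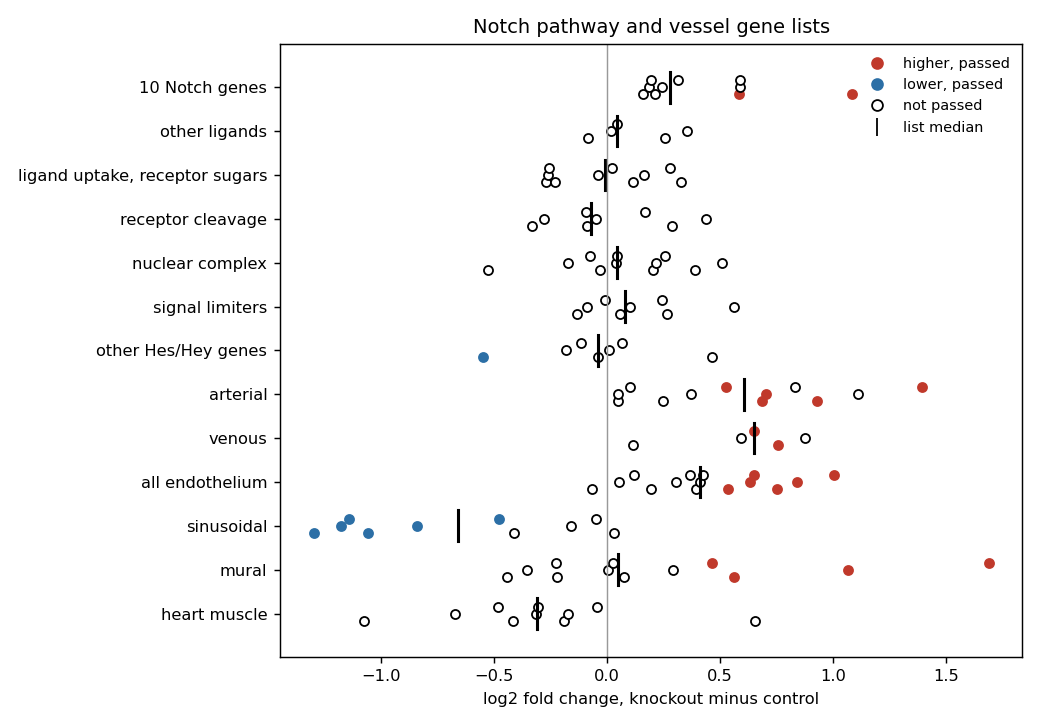
Log2 fold change (horizontal axis, knockout minus control) of each measured gene in the Notch and vessel gene lists, with filled points past the threshold and bars at list medians. Notch processing and nuclear genes centre near 0, with Hes7 the filled point below it, whereas arterial, venous and shared endothelial lists have medians of 0.61, 0.65 and 0.41.

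Of 12 arterial genes, many of which Notch maintains, 5 rose, 0 fell and 7 did not pass, against 3.59% of all genes higher and 2.77% lower (list median 0.61, and 0.55 against the female control). Acvrl1, the endothelial receptor ALK1 for BMP ligands, rose by 0.93 (SE 0.11, limma adjusted p = 0.0101), and Depp1, a FOXO-responsive gene, by 1.40 (SE 0.18, adjusted p = 0.0122). The gap junction gene Gja4 rose by 0.70 (adjusted p = 0.0178), the netrin receptor gene Unc5b by 0.69 (0.0190) and the VEGF and semaphorin co-receptor gene Nrp1 by 0.53 (0.0252). Efnb2, the ephrin-B2 gene of arteries, read 7.99, 9.48 and 7.98 in knockout livers and 7.47, 7.35 and 7.30 in control livers. Its difference of 1.11 did not pass (adjusted p = 0.116). Knockout replicate 2 stood far above the others, and without it the difference was 0.61 and passed (adjusted p = 0.0262). Sox17, an arterial transcription factor gene, was at 0.25 (limma adjusted p = 0.374). The gap junction gene Gja5, the chemokine receptor gene Cxcr4 and the kinase gene Bmx were at 0.10, 0.05 and 0.05. Bmx read only 3.43 to 3.62, below the array median of 5.43, and could not be told from background. With a sex term 0 of the 12 passed. Leaving out 1 array gave 0 to 6 of the 12, with 0 without control replicate 3 (adjusted p = 0.0536 to 0.102 for the 5), 2 without knockout replicate 3 and 3 without control replicate 2.

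Of 5 venous genes 2 rose, 0 fell and 3 did not pass, against the same shares of all genes (list median 0.65, and 0.64 against the female control), and 0 of 5 passed with a sex term. Nr2f2, whose product COUP-TFII promotes venous fate and represses Notch signalling in veins, read 8.97, 9.16 and 9.09 in knockout livers, against 8.29, 8.37 and 8.28 in control livers. Its groups lay far apart relative to their spread, with a difference of 0.76 (SE 0.09, limma adjusted p = 0.0104). The ephrin-B2 receptor gene Ephb4 rose by 0.65 (adjusted p = 0.0183), and Flt4, the VEGF-C receptor gene, was at 0.12. Without control replicate 3 neither passed (adjusted p = 0.0553 and 0.0738), and without knockout replicate 3 or control replicate 2 Nr2f2 alone did. The arterial and venous lists thus had similar medians, and a difference between them was not tested.

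In the list of genes common to endothelium of every kind, 6 of 15 rose and none fell, with the other 9 short of the threshold (median 0.41), against 3.59% of all genes higher and 2.77% lower. The junction genes Pecam1 and Cdh5 were among the 6, whereas the angiopoietin receptor gene Tek and its relative Tie1 were at −0.07 and 0.05. None of the 15 passed with a sex term, and leaving out 1 array gave 0 to 5, with 0 without control replicate 2 or 3. The summed unlogged level of the 15 was 6472 to 8134 in knockout arrays and 4984 to 5753 in control arrays.

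Of 10 sinusoidal markers 6 fell, 0 rose and 4 did not pass, against 2.77% of all genes lower and 3.59% higher (median −0.66, summed level 1826 to 2251 in knockout and 3492 to 3697 in control arrays). Stab2, a scavenger receptor gene, fell by 1.30 (limma adjusted p = 0.0161), a call lost without control replicate 2 (0.0554) or 3 (0.0678). None of the 10 passed with a sex term, and leaving out 1 array gave 2 to 6, with 2 without control replicate 3. Of 12 mural genes 4 rose, 0 fell and 8 did not pass, against the same shares of all genes (median 0.05, summed level 3539 to 5119 in knockout and 2747 to 3406 in control arrays). The 4 were the pericyte genes Pdgfrb (0.56), Rgs5 (1.69), Kcnj8 (1.06) and Mcam (0.46). Other pericyte markers of the list did not pass, with Abcc9, Cspg4 and Higd1b at 0.29, 0.07 and 0.03, nor did Des at 0.005. Higd1b read only 3.15 to 3.39, below the array median of 5.43, and could not be told from background. The smooth muscle genes Tagln, Myh11, Cnn1 and Acta2 were at −0.44, −0.35, −0.22 and −0.22. Each was highest within its group in knockout replicate 3 and control replicate 2, as Myl7 was. Acta2 read 10.88 and 10.41 in those arrays and Cnn1 6.90 and 6.96. The part of heart muscle content in these values was not tested. Rgs5 alone of the 12 passed with a sex term (limma adjusted p = 0.0484), and leaving out 1 array gave 1 or 2 of the 12.

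Markers of other liver cells were counted in the same way, against 3.59% of all genes higher and 2.77% lower. Of 8 macrophage genes 6 fell and 0 rose (median −1.39, summed level 1746.5 to 2226 in knockout and 2236 to 2743 in control arrays). The brightest gene in that sum, Vcam1, was at 0.33 and read 10.15 to 10.46 in knockout and 9.94 to 10.10 in control livers. Of 9 erythroid genes 5 fell and 0 rose (median −0.74, summed level 6257 to 6802 in knockout and 8259 to 12447 in control arrays). Of 6 biliary genes 2 rose and 0 fell (median 0.44, summed level 621 to 770 in knockout and 426 to 479 in control arrays), and of 9 hepatoblast genes 0 passed (median 0.20). None of these 4 lists had a gene past the threshold with a sex term, and neither these nor the endothelial, sinusoidal and mural lists had one without knockout replicate 3 and control replicate 2. Leaving out 1 array gave 2 to 7 macrophage and 1 to 6 erythroid genes lower, with the fewest without control replicate 3. It gave 0 or 1 biliary genes higher. Without knockout replicate 2 it gave 3 hepatoblast genes higher, and 0 in the other fits.

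The shared endothelial median per array, relative to the control mean, was 0.45, 0.27 and 0.62 in knockout replicates 1, 2 and 3, and that of the 10 Notch genes was 0.46, 0.23 and 0.37. Knockout replicate 2 was the lowest of the 3 on both, and also for Hey1, Hey2, Notch1, Notch4 and Jag2, but the highest for Hes1 and Notch3 and the middle one for Notch2, Dll4 and Jag1. In whole-liver RNA, fewer or more cells of a type and less or more RNA per cell cannot be told apart. The part of endothelial, mural, biliary, blood or heart muscle cell content in the Notch gene differences was not tested.

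**Figure D4:**
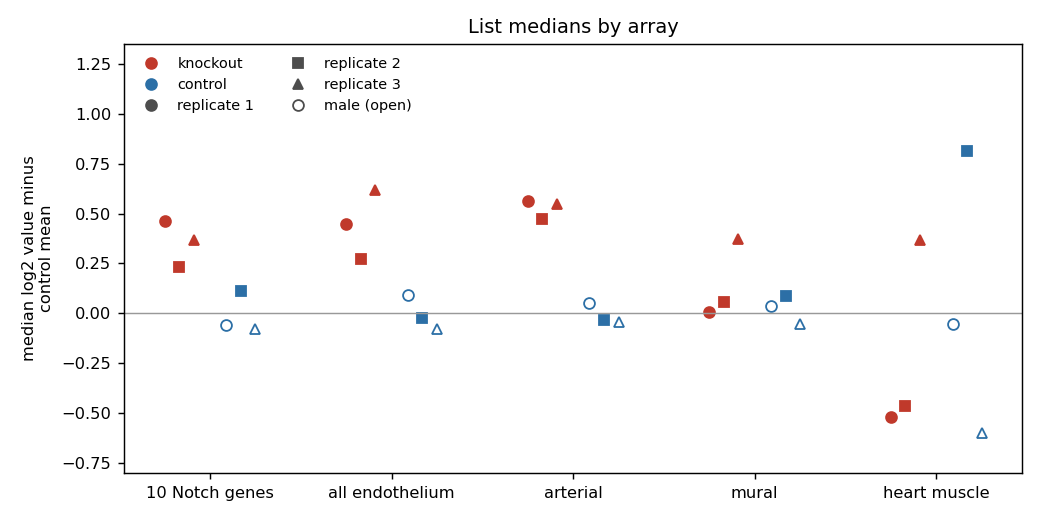
Median of each list in each array, as log2 values less the control mean (vertical axis), knockout left and control right in each pair; filled symbols female, open male. Knockout arrays lie above every control for the 10 Notch genes (0.23 to 0.46), shared endothelial and arterial lists, whereas heart muscle genes are highest in control replicate 2 (0.82) and knockout replicate 3 (0.37).

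The genes whose values followed Hey1 most closely over the 6 arrays were P4ha2, Col15a1 and Pcdhga2. Likeness was the mean absolute difference in log2 value after subtracting each gene's control mean, and it was 0.08, 0.09 and 0.10 for these 3. P4ha2 encodes a collagen prolyl hydroxylase subunit and Col15a1 a basement membrane collagen. Pcdhga2 belongs to a cluster of protocadherin genes that share sequence, so relatives of the gene may add to its value. P4ha2 read 7.23, 6.85 and 7.19 in knockout livers, against 6.09, 6.12 and 6.06 in control livers. Knockout replicate 2 was the lowest of its group as for Hey1, a likeness that the measure itself selects for.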

How the data were processed

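RNA of fetal livers was measured on 6 Affymetrix arrays. Per the submitters' processing notes the authors used RMA, and the deposited table holds its log2 values; chip definition and version were not given in the sources used here. Sorted values were identical in all 6 arrays (median 5.43, range 2.55 to 13.9), as after quantile normalisation, so depth and signal over background are unknown and the number of arrays limits precision. The labels call the replicates biological, and no pair of arrays shared more than 0.305% of values.

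Of 24479 features 23281 were named, 23156 by the current symbol in RefSeq's GRCm38.p6 table, and 23279 genes were kept, with the brighter feature where 2 shared a gene. Columns of no sample numbered 0. The test was limma 3.58.1 under R 4.3.3 (lmFit, eBayes, 4 residual and 4.06 prior degrees of freedom), tested on simulated data. An exact permutation test of 3 against 3 arrays cannot go below p = 0.1. Sex was read from Xist and Uty. Named genes were the 10 Notch genes, a preset of pathway and vessel genes, up to 4 genes past the threshold per pathway list, and 3 genes most like the member with the smallest p. Members, lists and rules were chosen with earlier results of these data known. Listed genes with no named feature were not analysed here.

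Alternatives were a variance trend, robust eBayes, filters on dim genes, array weights, centring on brighter genes, a replicate block, a sex term, control replicate 2 alone, an adjusted p of 0.1, and leaving out each array. Leaving out knockout replicate 3 and control replicate 2 together, and all alternatives for the cell type lists, were added after seeing the data.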

Additional observations from a re-analysis of the deposited data

How the results depend on the processing

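Main counts were 2 Notch genes higher, 0 lower, 8 genes past the threshold in the 6 other Notch lists and the arterial and venous lists, and 1480 of all genes. Notch genes lower were 0 under every alternative run with limma, and 0 also at an unadjusted p under 0.05. With a sex term the other counts were 0, 0 and 3, and without knockout replicate 3 and control replicate 2 together 0, 0 and 17; against control replicate 2 alone 0 Notch genes and 0 of all genes passed. Each such fit has fewer arrays or degrees of freedom. Leaving out 1 array gave 0 to 3 Notch genes, 0 to 12 pathway list genes and 41 to 1395 of all genes, with the lowest without control replicate 3. At an adjusted p of 0.1 the counts were 3, 12 and 2700. Notch genes numbered 3, with Notch3 added, under a variance trend and both filters on dim genes, and 2 under robust eBayes, array weights and centring on brighter genes. With the replicate number as a block 2 Notch genes passed, Hey1 and Notch3 (limma adjusted p = 0.0330 and 0.0417), and Hes1 did not (0.0519). In that fit 6 pathway list genes and 686 of all genes passed. Deviations of same-numbered arrays from their group means correlated at −0.05, −0.01 and −0.08. The labels do not say whether same-numbered arrays were paired, and with 3 arrays a group these correlations cannot settle it.

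Signs reversed for Jag1, Maml1, Nrarp, Hes5 and Myl7. Jag1 was −0.061 and Maml1 −0.036 with a sex term and against control replicate 2 alone, where Nrarp was 0.15. Nrarp was 0.0088 without knockout replicate 3 and control replicate 2 together, and Myl7 was 0.021 with array weights. Without 1 array Maml1 ranged from −0.0026 to 0.11, Nrarp from −0.12 to 0.088, Hes5 from −0.049 to 0.16 and Myl7 from −1.22 to 0.37. The cause of these changes was not tested. Of the single-gene values recomputed under alternatives, 503 kept direction and call, 93 lost the call, 7 gained it and 17 reversed. No signal over background was held, so dim genes such as Jag2, Hes5, Rbpj, Bmx and Higd1b could not be told from background.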

Other observations

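Knockout replicate 2 stood apart in several genes of the vessel and duct lists. Efnb2 is described above, and Mecom, a transcription factor gene of arterial endothelium and blood stem cells, read 5.41, 7.07 and 5.78 in knockout livers and 5.28, 5.18 and 5.30 in control livers. Epcam, an adhesion molecule of epithelium, read 5.37, 6.71 and 5.26 in knockout livers and 4.97, 4.61 and 4.81 in control livers. Nrp2, a co-receptor of veins and lymphatics, read 7.49, 8.44 and 7.60 in knockout livers and 6.87, 7.10 and 6.94 in control livers. None of these 3 passed (limma adjusted p = 0.224, 0.142 and 0.0652). Sox9, a duct and progenitor transcription factor gene that Notch can induce in liver, read 7.84, 8.54 and 7.87 in knockout livers and 7.29, 7.18 and 7.16 in control livers, and rose by 0.88 (SE 0.18, limma adjusted p = 0.0336), a call kept in 2 of the 6 fits that left out 1 array. These 4 genes lie outside the naming rule and were chosen after their values were seen.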
